A study of Mus musculus with 9 samples.

Results

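Glutathione transferases were examined in hearts of mouse embryos carrying a point mutation in *Ctcf*, through 10 genes: *Gstp1*, *Gstp2*, *Gstm1*, *Gstm2*, *Gstm5*, *Gsta4*, *Gstt1*, *Gsto1*, *Mgst1* and *Mgst3*. They were taken by name from the 24571 gene symbols used, and all 10 were among the 13682 genes that averaged at least 1 TPM, a transcript abundance that corrects for length and sets every library to the same total. *Gstp2* was chosen by its higher level in homozygous hearts in these same libraries, so its levels and changes are given as a description, without a test, and counts of called genes cover the other 9. C57BL/6N embryos were collected at E18.5, near birth, and were wild type, heterozygous (*Ctcf* +/R567W) or homozygous (*Ctcf* R567W/R567W) for the CTCF-R567W allele made by CRISPR/Cas9, with 3 libraries of whole heart per genotype. CTCF, through its zinc fingers, binds DNA and helps to form chromatin loops. The allele is constitutive and carried by all cells of the embryo, so whole-heart RNA pools every cell type of the organ.

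Glutathione transferases join the tripeptide glutathione to reactive, electrophilic compounds, which makes these more soluble and ready for export from the cell. The cytosolic enzymes fall into classes named by Greek letters (alpha, mu, pi, theta, omega, zeta), of which *Gsta*, *Gstm*, *Gstp*, *Gstt*, *Gsto* and *Gstz* genes are the members, while the microsomal enzymes (*Mgst*) are membrane proteins of a separate origin. In heart muscle, which is rich in mitochondria, they act beside glutathione peroxidases on products of lipid peroxidation, and several are known targets of the transcription factor NRF2.

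*Gstp1* and *Gstp2* encode pi-class enzymes and lie side by side on the minus strand of chromosome 19 (mm10), *Gstp1* at 4035407 to 4037985 and *Gstp2* at 4040285 to 4046023 in GENCODE M21. Their coding sequences are shown first because they limit how well reads can be told apart. Of 630 coding bases, 618 were identical (98.1%), with 12 mismatches and a longest identical run of 300 bases. The first 120 coding bases hold 6 of the mismatches, which are given in capitals.
Gstp1: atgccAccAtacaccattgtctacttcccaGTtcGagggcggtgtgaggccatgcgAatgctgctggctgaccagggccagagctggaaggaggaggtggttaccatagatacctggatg
Gstp2: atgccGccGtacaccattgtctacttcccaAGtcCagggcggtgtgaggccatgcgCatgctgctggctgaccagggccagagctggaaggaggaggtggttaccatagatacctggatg
Of the 31-base words in the transcripts of *Gstp2*, 60.3% also occurred in transcripts of other genes, 54.8% in those of *Gstp1*. The reverse share was smaller, with 38.5% of *Gstp1* words shared with *Gstp2*. How reads that fit both genes were divided was decided by RSEM, an expectation-maximization method, and cannot be read from TPM.

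The sequences before the start sites differed more than the coding sequences. The 250 bases upstream of the RefSeq start (GRCm38.p6) are shown for the pair, at chr19:4037913-4038162 for *Gstp1* and chr19:4042222-4042471 for *Gstp2*, both on the minus strand, with an AP-1 site (TGANTCA) and GC boxes (GGGCGG) in capitals. Both starts lie inside the gene models of GENCODE M21, which reach to 4037985 for *Gstp1* and 4046023 for *Gstp2*. The *Gstp1* window therefore lies partly, and the *Gstp2* window wholly, inside the gene model.
Gstp1: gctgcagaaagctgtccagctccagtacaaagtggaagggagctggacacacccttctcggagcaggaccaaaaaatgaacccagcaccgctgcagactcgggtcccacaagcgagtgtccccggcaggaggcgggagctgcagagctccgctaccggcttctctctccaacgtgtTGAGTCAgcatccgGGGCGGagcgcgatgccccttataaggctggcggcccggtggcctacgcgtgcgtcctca
Gstp2: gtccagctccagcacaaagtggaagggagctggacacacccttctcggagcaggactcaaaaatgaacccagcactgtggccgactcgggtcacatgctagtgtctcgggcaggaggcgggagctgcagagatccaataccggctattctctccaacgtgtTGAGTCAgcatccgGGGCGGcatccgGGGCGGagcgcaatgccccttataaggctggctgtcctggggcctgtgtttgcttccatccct
An alignment of these stretches had 265 positions, of which 78.1% were identical, and the longest identical run was 43 bases. Each held 1 AP-1 site with the letters TGAGTCA, at bases -74 to -68 before the start in *Gstp1* and -89 to -83 in *Gstp2*. *Gstp1* had 1 GC box, at -60 to -55, and *Gstp2* had 2, at -75 to -70 and -63 to -58. On either strand, the AP-1 letters stood in 6.75% and the GC box in 32.7% of the same 250 upstream bases of 32851 RefSeq promoters. Neither window held the antioxidant response element core TGACNNNGC, present in 10.2% of them, or GGNGGCAG, the end of the CTCF core motif, present in 9.93%. The letters TGACNNNGC cannot match TGAGTCAgca, which both windows held, and other forms of the element were not searched.

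The transferase genes spanned a wide range of levels in wild-type hearts. *Gstp1* had the highest mean, 184 ± 20.7 TPM (SD, n = 3), followed by *Mgst3* with 115 ± 3.50 TPM (SD, n = 3). *Gsto1* (58.4), *Gsta4* (58.2), *Gstm1* (54.4), *Gstm5* (52.9), *Gstm2* (51.6) and *Mgst1* (35.3) followed in mean TPM, and each overlapped its neighbour in this order across the 3 libraries, except that the lowest *Gstm1* value (53.23) was just above the highest of *Gstm5* (53.20). *Gstp2* came next with 6.73 ± 1.2 TPM (SD, n = 3) and *Gstt1* last with 4.06 ± 1.01 TPM (SD, n = 3), and neither overlapped a neighbour in the order. TPM is corrected for length, so these levels can be set side by side.

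Several libraries stood apart in markers of other organs. Summed TPM of 12 thymocyte markers was 582 in homozygous 3 and 0.56 to 2.78 elsewhere, and 6 markers of thymic epithelium summed to 282 there against 3 to 10.3. The 11 airway and lung markers summed to 2621 TPM in wild-type 1 and 1112 in heterozygous 1, against 6.16 to 57.3 in the other 7, and the 12 liver markers to 3256 in heterozygous 1 against 17 to 70.3 in the others. The 8 cardiomyocyte markers summed to 30736 TPM in homozygous 3 and 36788 to 43168 elsewhere, and none of them was at 0 in every library. Endothelial (309 to 531), fibroblast (595 to 1395), macrophage (30.1 to 61), erythroid (2853 to 15542) and neuronal (3.17 to 9.79) sums of TPM overlapped between genotypes. The 5 smooth-muscle markers summed to 1474 to 1506 TPM in wild-type, 1110 to 1459 in heterozygous and 774 to 1214 in homozygous libraries, without overlap between wild type and either mutant genotype. *Xist*, expressed in female cells, reached 1 TPM in 1 wild-type, 3 heterozygous and 1 homozygous library. This mark of sex was therefore uneven across genotypes. In whole-organ RNA, fewer cells of a type and less RNA per cell cannot be told apart.

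In *Gstp2*, a pi-class gene, the wild-type libraries held 6.39, 5.74 and 8.07 TPM, the heterozygous ones 10.1, 8.13 and 12.3 TPM and the homozygous ones 22.5, 22.9 and 15.5 TPM. The 3 genotypes did not overlap, although the highest wild-type and the lowest heterozygous library were nearly equal. The lowest homozygous value was that of homozygous 3, the library with thymus markers. They averaged 6.73 ± 1.2, 10.2 ± 2.11 and 20.3 ± 4.19 TPM (SD, n = 3 each). On the log2(TPM + 1) scale, the difference was 1.45 (SE 0.20) for homozygous minus wild type, 0.93 (SE 0.20) for homozygous minus heterozygous and 0.53 (SE 0.20) for heterozygous minus wild type. The smooth-muscle sums were lower in both mutant genotypes than in wild type, and the part of tissue makeup in the *Gstp2* levels was not tested. Without the 3 libraries rich in other-organ markers, wild-type 1, heterozygous 1 and homozygous 3, the first of these was 1.60.

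In *Gstp1*, the main pi-class gene, the wild-type libraries held 182, 164 and 206 TPM, the heterozygous ones 192, 189 and 194 TPM and the homozygous ones 196, 216 and 180.3 TPM. The genotypes overlapped, and the means were 184 ± 20.7, 192 ± 2.98 and 197 ± 17.7 TPM (SD, n = 3 each). The log2 change from wild type to homozygous was 0.10 (SE 0.11, limma adjusted p = 0.553), below the 0.23 of the median gene, and it became -0.14 after median-ratio scaling. For homozygous against heterozygous it was 0.04 (SE 0.11) and for heterozygous against wild type 0.06 (SE 0.11).

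**Figure D1:**
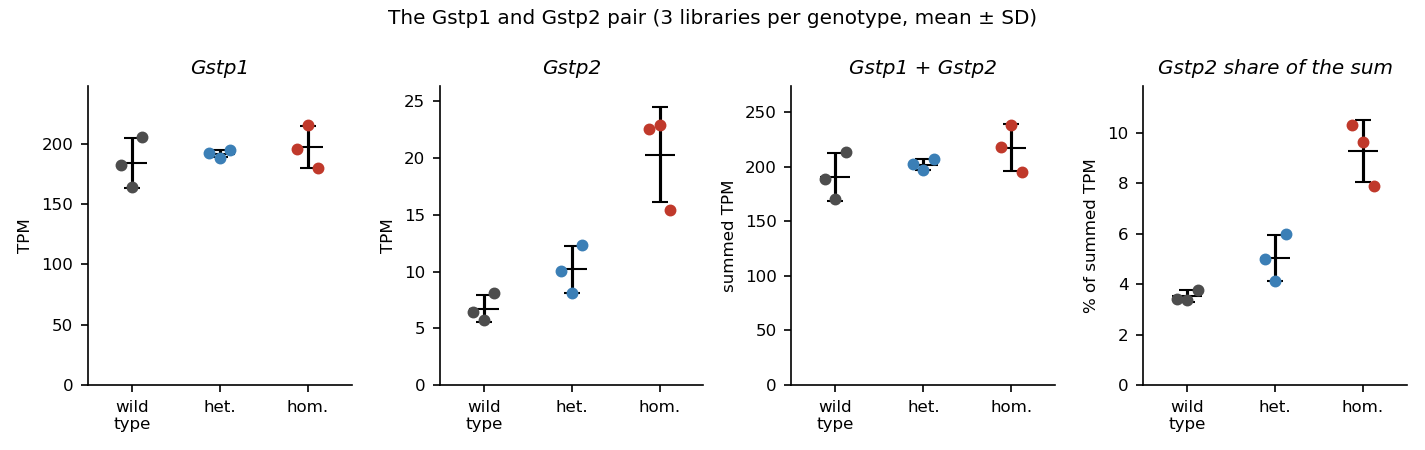
TPM of *Gstp1*, *Gstp2* and their sum, and the share of *Gstp2* in that sum in percent, in each library (points) with the mean and SD of the 3 libraries per genotype (bars). *Gstp1* lies between 164 and 216 TPM with overlapping genotypes, while the *Gstp2* share runs from 3.37% in wild-type 2 to 10.3% in homozygous 1.

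The share of *Gstp2* in the pair compares the genes within a library, where scaling cancels. It was 3.39%, 3.37% and 3.78% in the wild-type libraries, 4.99%, 4.13% and 5.97% in the heterozygous ones, and 10.3%, 9.61% and 7.90% in the homozygous ones. The genotypes did not overlap, with means of 3.51% ± 0.231, 5.03% ± 0.921 and 9.27% ± 1.24 (SD, n = 3 each). *Gstp1* was 25.5 to 28.6 times as abundant as *Gstp2* in wild-type libraries and 8.70 to 11.7 times in homozygous ones. The summed TPM of the pair was 189, 170.2 and 214 in wild-type, 202, 197 and 207 in heterozygous and 218, 238 and 196 in homozygous libraries, and the wild-type and homozygous sums overlapped. The mean of *Gstp2* was 13.6 TPM higher in homozygous than in wild-type hearts, less than the SD of *Gstp1* among wild-type libraries, 20.7 TPM. Whether shared reads moved between the genes was not tested.

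None of the 9 other listed genes was called in any comparison at an adjusted p under 0.05 in limma (Benjamini-Hochberg over all tested genes). In the homozygous against wild-type comparison 0 of 9 were called, against 46 of 13682 genes (0.336%), and 0 of 9 had an unadjusted p under 0.05, against 25.0% of all genes. For homozygous against heterozygous hearts, 0 of 9 were called, against 6 genes in all (0.0439%), and 0 had an unadjusted p under 0.05, against 7.15%. For heterozygous against wild-type hearts, 0 of 9 were called, against 2 genes in all (0.0146%), and 1 had an unadjusted p under 0.05 (*Gstt1*), against 6.87%. Their log2 changes from wild type to homozygous ran from -0.09 to 0.73 with a median of 0.14, beside a median of 0.23 over all genes, and 3 of the 9 exceeded that median. After median-ratio scaling, *Gstm1* (-0.10), *Gstm5* (-0.10) and *Mgst3* (-0.11) turned below 0, as *Gstp1* did. With so few adjusted calls in the whole table, a count of 0 is near the background.

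**Figure D2:**
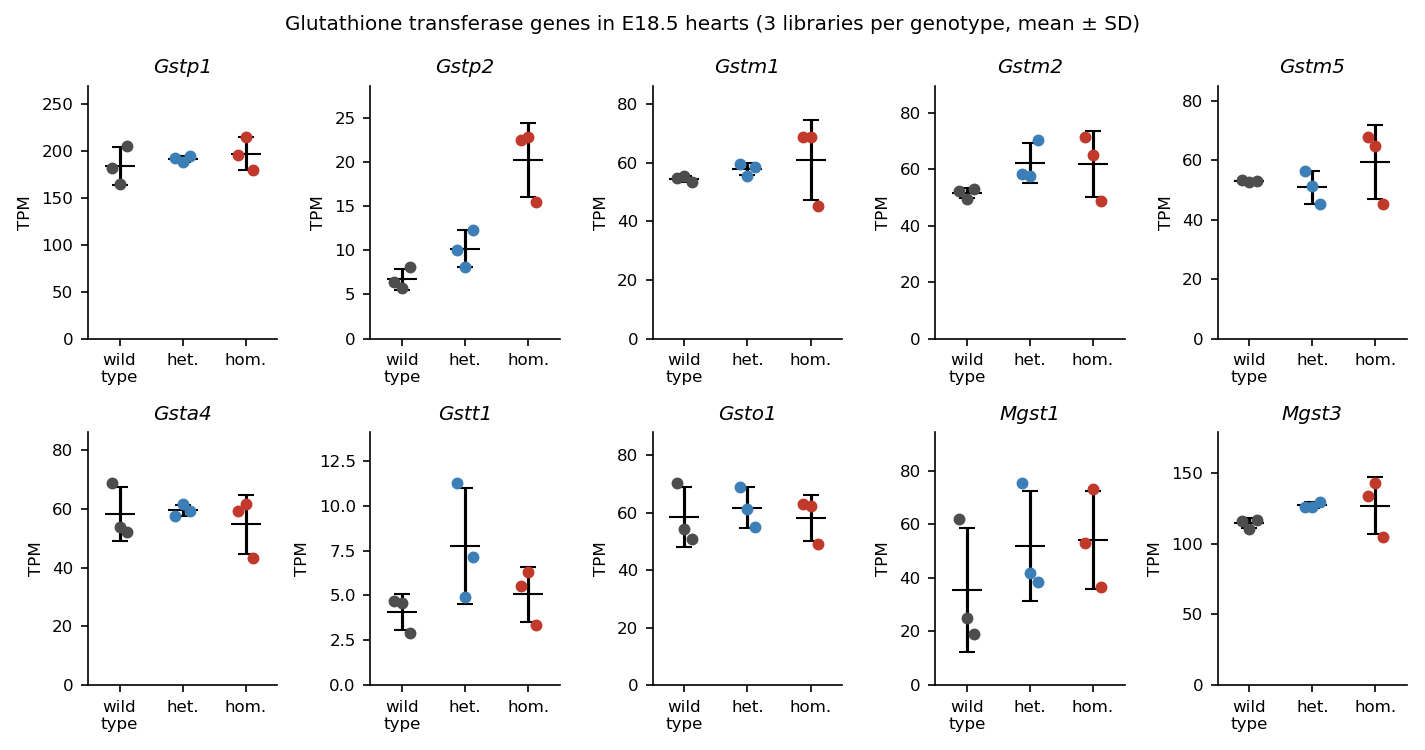
TPM of the 10 genes in each library (points), with the mean and SD of the 3 libraries of each genotype (bars), on axes that start at 0. Points are in replicate order, and the third homozygous library is the lowest homozygous point in every panel.

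*Gstm1*, *Gstm2* and *Gstm5* encode mu-class enzymes, grouped on chromosome 3. *Gstm1* held 54.6, 55.3 and 53.2 TPM (wild type), 59.4, 55.5 and 58.6 TPM (heterozygous) and 68.9, 68.8 and 45.0 TPM (homozygous). *Gstm2* held 52.1, 49.6 and 53.0 TPM (wild type), 58.5, 57.7 and 70.5 TPM (heterozygous) and 71.6, 65.2 and 48.8 TPM (homozygous). In both, homozygous 1 and 2 lay above all wild-type libraries and homozygous 3 lay below them. *Gstm5* held 53.2, 52.7 and 52.9 TPM (wild type), 56.3, 51.2 and 45.1 TPM (heterozygous) and 67.9, 64.9 and 45.1 TPM (homozygous), again with homozygous 3 apart. The log2 changes from wild type to homozygous were 0.13 (SE 0.15, limma adjusted p = 0.579), 0.24 (SE 0.15, adjusted p = 0.313) and 0.14 (SE 0.16, adjusted p = 0.57). Of 31-base words, *Gstm1* shared 28.8% and *Gstm2* 12.2% with other genes, so part of their values depends on how reads were divided. *Gstm5* shared 0%, but overlaps an antisense gene, *4933431E20Rik*, and the use of strand is not stated.

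*Gsta4*, the alpha-class enzyme known for conjugating 4-hydroxynonenal, a product of lipid peroxidation, overlapped between all genotypes. It held 68.8, 53.7 and 52.2 TPM (wild type), 57.7, 61.6 and 59.1 TPM (heterozygous) and 59.2, 61.8 and 43.3 TPM (homozygous), and differed by -0.09 on the log2 scale (SE 0.15, limma adjusted p = 0.71) from wild type to homozygous. *Gsto1*, an omega-class enzyme with thioltransferase activity, held 70.3, 54.4 and 50.7 TPM (wild type), 68.9, 61.3 and 54.9 TPM (heterozygous) and 63.1, 62.2 and 48.9 TPM (homozygous). Its log2 change was -0.00 (SE 0.16, limma adjusted p = 0.99). The highest wild-type value of both genes was in wild-type 1, the library with 2621 TPM of airway and lung markers. The part of that tissue in these values was not tested. *Gsto1* overlaps *Cfap43* on the opposite strand.

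The theta-class gene *Gstt1* was the lowest of the 10. It held 4.69, 4.59 and 2.89 TPM (wild type), 11.3, 4.89 and 7.17 TPM (heterozygous) and 5.55, 6.31 and 3.35 TPM (homozygous). The highest value was in heterozygous 1, which held the 3256 TPM of liver markers, and the part of liver RNA was not tested. Heterozygous libraries lay above all wild-type ones, at a log2 difference of 0.75 (SE 0.29, limma adjusted p = 0.672), and wild-type and homozygous libraries overlapped, at 0.25 (SE 0.29, adjusted p = 0.582). Between homozygous and heterozygous hearts the difference was -0.50 (SE 0.29, adjusted p = 0.774).

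The microsomal genes differed in their spread. *Mgst1*, which encodes a membrane-bound transferase and peroxidase, varied most between libraries, with 61.8, 25.1 and 19.1 TPM (wild type), 75.4, 41.8 and 38.5 TPM (heterozygous) and 53.0, 73.0 and 36.6 TPM (homozygous). Wild-type 1 and heterozygous 1, with 2621 and 1112 TPM of airway and lung markers, were the highest of their genotypes, and the part of that tissue was not tested. The log2 change from wild type to homozygous was 0.73 (SE 0.41, limma adjusted p = 0.277), and 1.46 (adjusted p = 0.0977) without the 3 libraries with other-organ markers, in a range of adjusted p from 0.0806 to 0.588 over all settings. *Mgst3*, a microsomal enzyme abundant in muscle, held 116, 111 and 117 TPM (wild type), 126, 126 and 129.6 TPM (heterozygous) and 134, 143 and 104 TPM (homozygous). Its log2 change was 0.14 (SE 0.12, limma adjusted p = 0.469) from wild type to homozygous and 0.15 (SE 0.12, adjusted p = 0.692) from wild type to heterozygous.

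A pattern that ran through the genes was the split of the homozygous group. Among the 9 genes other than *Gstp2*, homozygous 1 and homozygous 2 each lay above the 9-library median in 9, where 70.9% and 71.6% of all tested genes did so. Homozygous 3 lay above it in 0 of 9 (41.6% of all tested genes) and was the lowest of the 9 libraries, or tied for it, in 6 of 9 (17.0%). Homozygous 3 also had the thymus markers and the lowest cardiomyocyte sum, and their part in these levels was not tested. Of these 9 genes, 0 were higher in homozygous than in wild-type hearts without overlap (22.3% of all genes) and 0 were lower (2.38%). Against heterozygous hearts 0 were higher (12.0% of all genes), and 4 were higher in heterozygous than in wild-type hearts (12.8% of all genes), *Gstm1*, *Gstm2*, *Gstt1* and *Mgst3*.

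Leaving out libraries changed these counts, for the members and for the whole table. Without homozygous 3, 5 of 9 genes were higher in homozygous than in wild-type hearts without overlap (46.9% of all genes), namely *Gstm1*, *Gstm2*, *Gstm5*, *Gstt1* and *Mgst3*, and 4 were higher than in heterozygous hearts (33.0%). Without all 3 libraries with other-organ markers, which leaves 2 per genotype, 8 of 9 were higher than in wild-type hearts (50.4% of all genes), all but *Gstp1*. In that setting 6 of 9 were higher in homozygous than in heterozygous hearts (39.7% of all genes) and 7 of 9 in heterozygous than in wild-type hearts (22.3%), with 1 lower, *Gstm5* (5.81% of all genes), while none was called by limma. These settings were added after the values had been seen.

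**Figure D3:**
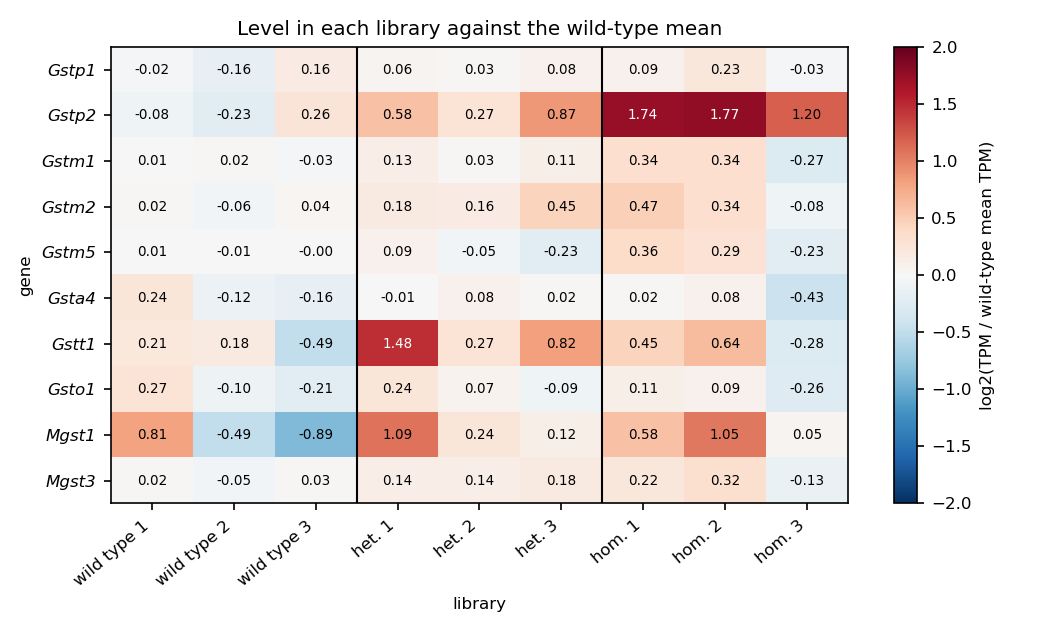
Level of each gene in each library as log2 of its TPM over the wild-type mean, with red above and blue below it and vertical lines between genotypes. *Gstp2* reaches 1.74, 1.77 and 1.2 in the 3 homozygous libraries, and *Mgst1* and *Gstt1* stand out in heterozygous 1 at 1.09 and 1.48.

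The wider family was described from a list of transferase and related genes, of which 30 were in the table and 22 were tested. Among the 21 tested genes other than *Gstp2*, 0 were called higher and 1 lower when homozygous hearts were set against wild-type ones. Of all 13682 genes, 26 were called higher and 20 lower (0.336% in all). The median log2 change of the 21 was 0.14, beside 0.23 for all genes. In each of the other comparisons 0 of 21 were called. Of all genes, 0.0439% were called for homozygous against heterozygous and 0.0146% for heterozygous against wild type. An unadjusted p under 0.05 in limma was found for 4 of 21 in homozygous against wild-type hearts (25.0% of all genes), 2 in homozygous against heterozygous ones (7.15%) and 3 in heterozygous against wild-type ones (6.87%). Without *Gstp2*, the summed TPM of the family was 708 ± 51.9 in wild-type, 777 ± 53.1 in heterozygous and 789 ± 125.5 in homozygous hearts (SD, n = 3 each). An exact two-sided permutation test of homozygous against wild-type sums gave p = 0.4, where 0.1 is the smallest p for 3 against 3. The pair *Gstp1* and *Gstp2* made up 23.8% to 30.0% of the whole family's TPM in every library.

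The called gene was *Gstm6*, a mu-class gene of the chromosome 3 group (107938847 to 107943749, minus strand, mm10). It held 4.98, 4.16 and 4.90 TPM (wild type), 2.0, 3.12 and 2.26 TPM (heterozygous) and 1.59, 1.03 and 0.47 TPM (homozygous). The genotypes did not overlap, and the order was the reverse of that of *Gstp2*. From wild type to homozygous it fell by 1.52 on the log2 scale (SE 0.24, limma adjusted p = 0.0371). The differences were -0.79 (SE 0.24, adjusted p = 0.563) for homozygous minus heterozygous and -0.73 (SE 0.24, adjusted p = 0.672) for heterozygous minus wild type. The call was kept in 12 of 22 other settings, with adjusted p from 0.00769 to 0.166, and was lost without the 3 libraries with other-organ markers (adjusted p = 0.124) and without wild-type 1 (adjusted p = 0.166), wild-type 2 (0.147), homozygous 2 (0.131) or any heterozygous library (0.0565 to 0.0858). The level is low, and 9.62% of its 31-base words are shared with other genes.

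The remaining mu-class genes were not called. *Gstm4* had means of 8.30, 8.50 and 8.33 TPM and *Gstm7* of 24.4, 24.4 and 24.0 TPM (wild type), heterozygous and homozygous hearts, with log2 changes of -0.02 (SE 0.19) and -0.05 (SE 0.20) from wild type to homozygous. The theta-class genes *Gstt2* and *Gstt3*, neighbours of *Gstt1* on chromosome 10, were higher in all homozygous than in all wild-type libraries. Of the 21 tested family genes other than *Gstp2*, 3 were so, with *Gstcd* as the third, beside 22.3% of all genes. *Gstt2* held 2.31, 1.10 and 1.38 TPM (wild type), 4.14, 2.30 and 2.41 TPM (heterozygous) and 4.45, 3.60 and 3.96 TPM (homozygous), a log2 difference of 0.97 (SE 0.24, limma adjusted p = 0.0983). *Gstt3* held 1.56, 0.58 and 0.72 TPM (wild type), 1.03, 1.11 and 0.87 TPM (heterozygous) and 2.21, 2.84 and 2.36 TPM (homozygous), a log2 difference of 0.86 (SE 0.25, limma adjusted p = 0.115). Neither passed the threshold. *Gstt3* overlaps *Gm20441*, with which it shares 12.8% of its words.

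**Figure D4:**
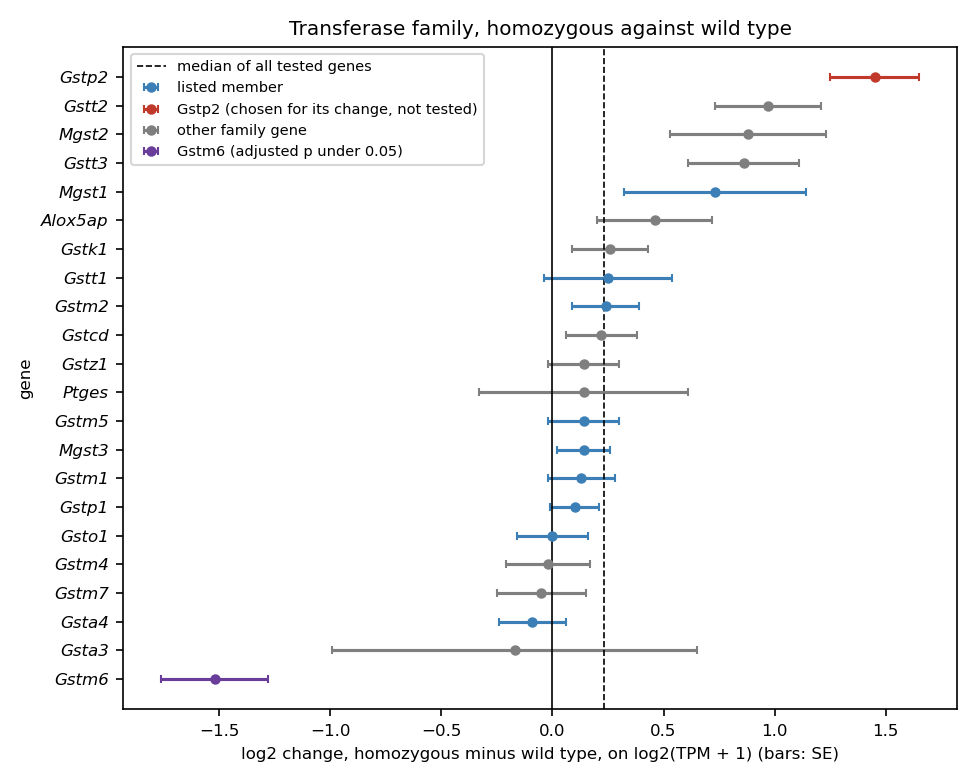
Log2 change of the 22 tested family genes, homozygous minus wild type on log2(TPM + 1), with standard errors as bars and the median of all tested genes, 0.23, as a dashed line. *Gstp2* (1.45) and *Gstm6* (-1.52) lie at the ends, and the mu-class genes other than *Gstm6* lie between -0.05 and 0.24.

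In some of the further family genes, single libraries stood apart. *Mgst2*, a microsomal transferase that can make leukotriene C4, held 5.72, 4.50 and 2.31 TPM (wild type) and 4.45, 9.0 and 12.9 TPM (homozygous), at a log2 difference of 0.88 (SE 0.35, limma adjusted p = 0.165). Its highest value was in homozygous 3, with the thymus markers. *Alox5ap*, which helps 5-lipoxygenase to make leukotrienes, differed by 0.46 (SE 0.26, adjusted p = 0.269), and *Ptges*, a prostaglandin E synthase, by 0.14 (SE 0.47) with 3.46 TPM in wild-type 1 and 0.28 to 1.76 TPM elsewhere. *Gsta3*, an alpha-class gene, held 16.5 TPM in heterozygous 1, with the liver markers, and at most 2.17 TPM in the other 8 libraries. *Gstk1* (0.26, SE 0.17), *Gstcd* (0.22, SE 0.16) and *Gstz1* (0.14, SE 0.16) were not called either. Under the filter lay 8 genes, *Gsta1*, *Gsta2*, *Gstm3*, *BC021614*, *Gstt4*, *Gsto2*, *Hpgds* and *Ltc4s*, at 0 to 5.24 TPM. The highest of these values was *BC021614*, also known as *Gstp3*, in heterozygous 1, where the other 8 libraries had at most 0.36 TPM, and it was named after its values were seen. The part of other organs in these values was not tested.

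Genes that make and recycle glutathione were examined next. Of 10 tested, 0 were called in any comparison, where 0.336% of all genes were called for homozygous against wild type. At an unadjusted p under 0.05 in limma there were 0 in each comparison. Of all genes, 25.0% passed it for homozygous against wild type, 7.15% for homozygous against heterozygous and 6.87% for heterozygous against wild type. The median log2 change from wild type to homozygous was 0.14, beside 0.23 over all genes. *Dpep1*, a dipeptidase of glutathione breakdown, had the highest log2 change among those averaging at least 5 TPM, 0.39 (SE 0.37), and *Oplah*, the 5-oxoprolinase of the glutathione cycle, followed with 0.38 (SE 0.18). *Chac2*, a glutathione-degrading cyclotransferase, was lowest at -0.12 (SE 0.18), and *Slc3a2*, a chain of the cystine transporter, was next at 0.03 (SE 0.15).

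Among 25 tested peroxidases and reductases, 0 were called in any comparison (at most 0.336% of all genes). At an unadjusted p under 0.05 in limma there were 2 for homozygous against wild type (25.0% of all genes). The median log2 change there was -0.01, beside 0.23 over all genes. *Cat*, catalase, went from 36.7 ± 6.63 to 51.1 ± 10.4 TPM (SD, n = 3 each), a log2 difference of 0.46 (SE 0.17, limma adjusted p = 0.153). *Prdx6*, a peroxiredoxin that draws on glutathione bound to the pi-class transferase, held 67.9, 65.6 and 71.8 TPM (wild type), 76.9, 79.1 and 77.0 TPM (heterozygous) and 92.2, 92.9 and 79.5 TPM (homozygous). These groups did not overlap, at a log2 difference of 0.36 (SE 0.10, limma adjusted p = 0.112) from wild type to homozygous. Of the 25 genes, 2 were higher in homozygous than in wild-type hearts without overlap, beside 22.3% of all genes. *Glrx2* (-0.19, SE 0.21) and *Prdx4* (-0.12, SE 0.16) were at the other end among those averaging at least 5 TPM.

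The NRF2 axis comprised the factor, its partners and known targets. Of its 22 tested genes, 0 were called in any comparison (at most 0.336% of all genes). At an unadjusted p under 0.05 in limma there were 5 for homozygous against wild type (25.0% of all genes). The median log2 change there was 0.20, beside 0.23 over all genes. *Tkt*, transketolase of the pentose phosphate pathway, held 21.1, 22.7 and 20.3 TPM (wild type), 28.9, 23.2 and 27.4 TPM (heterozygous) and 27.8, 36.3 and 34.3 TPM (homozygous), at a log2 difference of 0.59 (SE 0.14, limma adjusted p = 0.0904). *Cbr1*, a carbonyl reductase, differed by 0.42 (SE 0.13, adjusted p = 0.124). The small MAF genes *Mafk* and *Maff*, partners of NRF2 in DNA binding, lay lowest of those averaging at least 5 TPM, at -0.48 (SE 0.16, adjusted p = 0.135) and -0.45 (SE 0.19, adjusted p = 0.18). Of 5 tested genes for export of conjugates, 0 were called in any comparison (at most 0.336% of all genes). At an unadjusted p under 0.05 in limma there were 2 for homozygous against wild type (25.0% of all genes). Their median log2 change there was 0.03, beside 0.23 over all genes. *Abcc5*, a multidrug resistance transporter, differed by 0.48 (SE 0.15) and *Abcg2*, an exporter of the same superfamily, by 0.02 (SE 0.18).

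The genes around *Gstp2* were described because CTCF acts on chromatin neighbourhoods. Of the genes whose lowest coordinate, whatever their strand, lies within 250 kb of that of *Gstp2*, 27 were tested besides *Gstp2*. Of these 27, 0 were called in any comparison (at most 0.336% of all genes). At an unadjusted p under 0.05 in limma there were 7 for homozygous against wild-type hearts (25.0% of all genes), 2 for homozygous against heterozygous ones (7.15%) and 1 for heterozygous against wild-type ones (6.87%). The median log2 change from wild type to homozygous was 0.28, beside 0.23 over all genes, and 7 of 27 were higher without overlap, beside the 22.3% of all genes. *Gstp1*, the adjacent gene, had the 0.10 given above. *Ptprcap*, a leukocyte gene, differed by 1.45 (SE 1.18), with 55.9 TPM in homozygous 3 against 0.20 to 1.47 TPM in the other 8 libraries. Among those averaging at least 5 TPM, *Gm17552* differed by 0.54 (SE 0.22), and *Ndufs8* and *Nudt8* were lowest at -0.08 (SE 0.14) and -0.03 (SE 0.11).

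**Figure D5:**
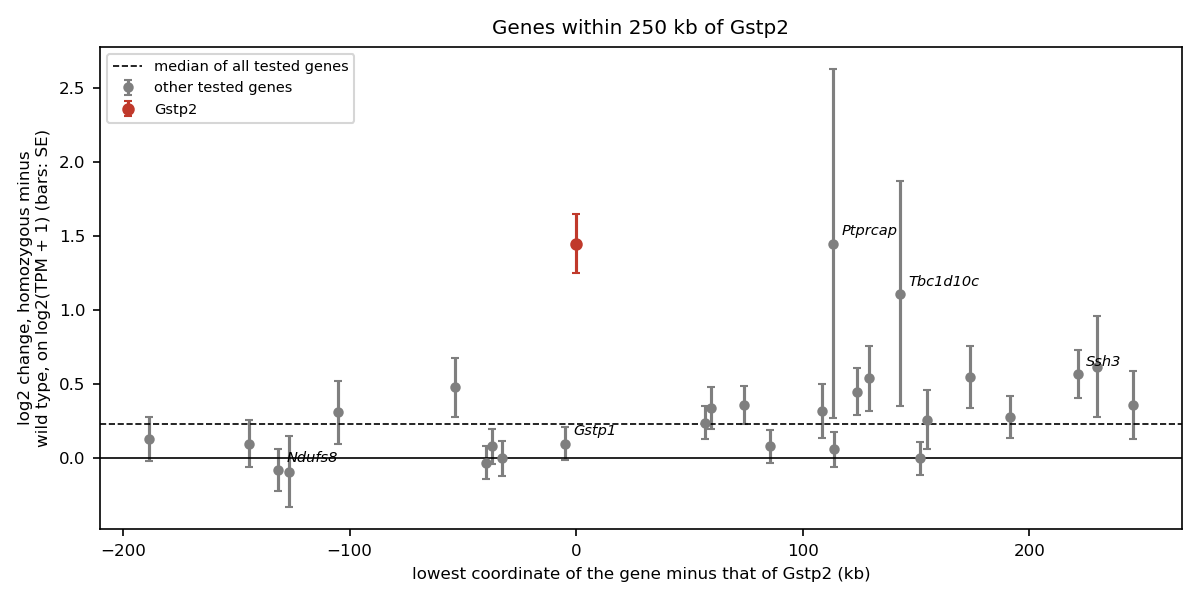
Log2 change, homozygous minus wild type on log2(TPM + 1), of *Gstp2* and 27 tested genes within 250 kb, by the difference between the genes' lowest coordinates in kb, with standard errors as bars and the median of all genes as a dashed line. *Gstp1*, the nearest tested gene, lies at 0.10, and *Ptprcap* and *Tbc1d10c* have wide bars and stand apart in homozygous 3.

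The genes whose level most resembled that of *Gstp2* across the 9 libraries, by Pearson r of log2(TPM + 1) over the 9952 genes averaging 5 TPM or more, were *Mylip* (r = 0.990), *Kptn* (0.990), *3830406C13Rik* (0.987), *Gpatch1* (0.977) and *Dctn5* (0.974). *Mylip*, a ubiquitin ligase of the LDL receptor, had means of 4.32, 5.75 and 9.72 TPM (wild type), heterozygous and homozygous hearts, and *Kptn*, an actin-binding protein, 18.3, 21.1 and 29.0 TPM. With each genotype centred on its own mean, the 5 values of r were 0.93, 0.93, 0.94, 0.83 and 0.78. *Gstp1* ranked 4495 at r = 0.597, and r = 0.78 within genotypes. For *Gstp1* the 5 genes were *Akr1b10* (0.985), *Tmem51* (0.978), *Mboat2* (0.960), *Asna1* (0.958) and *Atf1* (0.955), with r of 0.95 to 0.99 within genotypes. No gene was in both groups of 5. The libraries share their scaling and tissue makeup, so these values of r are descriptions over 9 points.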

How the data were processed

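RNA from E18.5 hearts was captured on poly-A beads, and the authors trimmed reads with Trim Galore, aligned them with STAR to mm10 and quantified genes with RSEM. The deposited values are TPM, summing to 999100 to 999245 per library, so depth is unknown, no counting error can be given, and precision rests on the spread between libraries. The annotation release, the use of strand and whether libraries came from separate embryos are not given in the sources used here, so p-values measure the spread between these libraries. The study's DESeq2 test needs counts and was not run.

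Libraries were grouped by title. The 26 symbols turned into dates were left out (at most 0.0921% of a library). Genes averaging at least 1 TPM were fitted as log2(TPM + 1) in limma (v3.58.1, R v4.3.3) with 3 genotypes, all 9 libraries in 1 fit and a mean-variance trend. Tests were two-sided with Benjamini-Hochberg adjustment over 13682 genes, and an adjusted p under 0.05 was called. On simulated data for homozygous against wild type, on 13682 genes, 93% of log2 changes of 2 and 68% of those of 1 were recovered, and 5.85% of calls were false. Whether these rates hold for the deposited libraries, where the median log2 change was 0.23, was not tested.

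Positions and 31-base words came from GENCODE M21 (mm10), and upstream sequences from RefSeq. The members, gene lists and marker lists were chosen with earlier results of these data known. Named were all 10 members, family genes averaging at least 1 TPM, called genes and the 2 highest and 2 lowest log2 changes of each list at a mean of at least 5 TPM, and 5 genes most like *Gstp2* and *Gstp1*, apart from 1 gene that is not reported here. Alternatives covered pseudocounts, filters, scalings, the model and left-out libraries.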

Additional observations from a re-analysis of the deposited data

How the results depend on the processing

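The *Gstp2* log2 change from wild type to homozygous, 1.45, kept its direction in all 23 alternatives. It moved by more than the spread between libraries in 2, to 1.10 with a pseudocount of 5 and to 1.17 after quantile normalization. With arrayWeights, which weights the libraries, it was 1.69. By construction, it could not change with other filters, without the trend, with robust eBayes or with only the 2 groups compared. Nor could it with a replicate block, a covariate for *Xist* or a left-out heterozygous library. *Gstp2* was chosen for its level in these libraries, so the kept direction is a description. Leaving out 1 library gave 1.36 to 1.63. The *Gstp2* share of the pair in homozygous hearts moved by less than its spread in all 7 settings run. Median-ratio scaling and rescaling without mitochondrial and haemoglobin genes cannot change a share within a library (9.27% in each). The setting without the 3 libraries with other-organ markers keeps the same homozygous libraries as that without homozygous 3 (9.96% in each). The count of called members other than *Gstp2* stayed at 0 in the 3 comparisons, except for 2 with arrayWeights in homozygous against wild type, *Gstm2* (adjusted p = 0.0227, range over settings to 0.997) and *Mgst3* (adjusted p = 0.0395, range to 0.874), a setting that called 5068 of all genes. Other scalings lowered the median of all genes from 0.23 to 0.02 (median-ratio scaling) and 0.01 (quantile normalization), and with the former the median of the 9 genes went from 0.14 to -0.10. The 46 genes called in homozygous against wild type ranged from 11 (only the 2 groups compared, or without the 3 libraries with other-organ markers) through 2170 without wild-type 3 to that 5068.

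The 1 gene called over all lists, *Gstm6*, became 0 without a filter, with a mean TPM of at least 5 (which leaves it out), with only the 2 groups compared and without the 3 libraries with other-organ markers, and 29 with arrayWeights. Leaving out 1 library gave 0 to 12, the highest without wild-type 3, and 2 without homozygous 3. The main fit did not pair libraries by replicate number. Correlations of same-numbered deviations ran from -0.0306 to 0.359, and those of differently numbered ones from -0.314 to 0.121. The highest were wild-type 1 with heterozygous 1 (0.359) and wild-type 3 with heterozygous 3 (0.297). With a replicate block 0 members and 0 list genes were called, and calls over all genes fell from 46 to 17. *Gstm6* had a limma adjusted p of 0.0783, and *Gstp2* stayed at 1.45, which this balanced block cannot change. TPM sets no depth limit that could be computed.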
